A study of Arabidopsis thaliana with 3 samples.

Results

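4 groups of Mutator-like DNA transposon sequences that are not VANDAL elements were compared in 3 small RNA libraries of Arabidopsis thaliana. Their members are differentially methylated regions whose every listed repeat name begins with ATMU, ARNOLD, ATDNAI27T9 or ATDNA12T3, and 276 of 4481 distinct regions fit. There were 160 ARNOLD regions, 53 ATMU regions, 46 ATDNAI27T9 regions and 17 ATDNA12T3 regions, under 24 family names and in 189 annotated elements. Each library came from whole 10-day-old seedlings grown in vitro in liquid medium, from WT (Col), from ddb2-3 (insertion line DsLoxHs195_05H) and from nrpd1a (insertion line Salk_583051). The values are 24-nt small RNA levels in RPM, reads scaled to a library total whose make-up is not stated. Levels in nrpd1a given as a percent of WT depend on these totals. With 1 library per genotype no difference has a replicate check, the 95% intervals given are exact binomial intervals that cover counting error only, and any test on reads compares libraries and not genotypes.

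Mutator-like elements are cut-and-paste transposons, and many of their copies in Arabidopsis are short derivatives that have lost the transposase gene. Plants silence such copies by RNA-directed DNA methylation, in which RNA polymerase IV (Pol IV) makes the precursors of 24-nt siRNAs and these guide a DNA methyltransferase back to the copy. NRPD1 is the largest subunit of Pol IV, so nrpd1a serves as the reference for siRNAs that need Pol IV. DDB2 recognises UV damage in global genome repair, and the study asks what its loss does to the methylation landscape.

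The regions had a median width of 100 bp, from 52 to 500 bp, and none overlapped another of the 276. Values were whole multiples of 1 read, worth 0.169 RPM in WT, 0.12 in ddb2-3 and 0.727 in nrpd1a. The nrpd1a library was thus the shallowest, and 3 of its reads, the floor used here for a level of 0, equal 2.18 RPM. Only 48 of the 276 regions had at least 90% of their 24-mers at a single place in the genome, and how reads with several hits were treated is not stated. If such reads were counted at each copy, regions of shared sequence count the same reads, and their intervals understate the error.

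Most of the reads left in nrpd1a lay in ATDNA12T3_2 and ARNOLDY regions with repeated sequence, and examples are shown with neighbours or relatives that kept little. The first set is from ATDNA12T3_2. Its core 24-mer is exact in 1 of the 4481 regions, 0.0223%, at chr3:13796043-13796100, and the other kept regions hold variants of it. Sequences are from RefSeq TAIR10.1, 5′ to 3′, on the strand given, and capitals mark bases identical to a tandem repeat unit of chromosome 3 (chr3:13752473-13752978) that begins with the core 24-mer.
core of the tandem unit: AGTTAAGCGTGCTTGGGCGAGAGT
ATDNA12T3_2 chr3:13763401-13763455 (- strand): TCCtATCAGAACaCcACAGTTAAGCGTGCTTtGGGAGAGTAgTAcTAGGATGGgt
ATDNA12T3_2 chr3:13796043-13796100 (- strand): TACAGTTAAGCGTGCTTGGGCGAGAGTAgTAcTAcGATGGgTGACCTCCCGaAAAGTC
ATDNA12T3_2 chr3:13862246-13862297 (+ strand): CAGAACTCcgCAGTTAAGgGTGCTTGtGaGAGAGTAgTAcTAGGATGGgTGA
ATDNA12T3_2 chr3:13859301-13859400 (+ strand): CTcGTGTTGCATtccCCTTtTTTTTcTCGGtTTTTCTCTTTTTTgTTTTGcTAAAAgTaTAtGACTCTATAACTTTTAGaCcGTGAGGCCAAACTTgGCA
ATDNA12T3_2 chr1:11493401-11493500 (+ strand): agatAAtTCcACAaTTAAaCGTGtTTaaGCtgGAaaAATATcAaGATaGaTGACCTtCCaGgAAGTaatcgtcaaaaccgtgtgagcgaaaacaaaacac

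The second set is from ARNOLDY1 and ARNOLDY2. Here capitals mark the stretches covered by 24-mers with at least 50 copies in the genome. The regions at chr1:6237601-6237700 and chr5:14523801-14523900 lie in the same annotated elements as the kept regions printed above each of them, and their nrpd1a signal was under the floor. The regions at chr1:6237301-6237400 and chr4:17450501-17450600 hold the 24-mer on the other strand, and the kept region at chr5:14525201-14525300 holds other 24-mers of at least 50 copies. The stretch in capitals at chr5:14523801-14523900 also has that many copies, without kept signal.
most frequent 24-mer of ARNOLDY regions: ATTTACAAGGGATTTTAAAAGGGT
ARNOLDY2 chr1:6237301-6237400 (+ strand): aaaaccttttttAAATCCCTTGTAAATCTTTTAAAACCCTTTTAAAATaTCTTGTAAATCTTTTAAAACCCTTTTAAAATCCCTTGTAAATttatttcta
ARNOLDY2 chr1:6237601-6237700 (+ strand): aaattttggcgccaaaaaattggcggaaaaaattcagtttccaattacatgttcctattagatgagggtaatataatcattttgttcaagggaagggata
ARNOLDY2 chr5:14525201-14525300 (+ strand): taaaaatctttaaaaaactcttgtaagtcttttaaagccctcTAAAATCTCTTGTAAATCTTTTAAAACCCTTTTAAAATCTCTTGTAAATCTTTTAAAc
ARNOLDY2 chr5:14523801-14523900 (+ strand): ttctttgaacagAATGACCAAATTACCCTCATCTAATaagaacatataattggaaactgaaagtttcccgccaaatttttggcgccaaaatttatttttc
ARNOLDY1 chr4:17450501-17450600 (+ strand): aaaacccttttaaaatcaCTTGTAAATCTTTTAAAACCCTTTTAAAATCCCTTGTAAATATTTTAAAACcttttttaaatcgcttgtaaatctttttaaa

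In WT the members were covered somewhat more densely than the rest of the regions. Their summed level was 20.5 RPM per 100 bp in WT, 19.9 in ddb2-3 and 3.29 in nrpd1a, against 15.7, 17.3 and 0.394 RPM per 100 bp over the other 4205 regions. ATDNA12T3 regions were the densest, at 65.6 RPM per 100 bp in WT, followed by ATDNAI27T9 at 32.4, ATMU at 15.9 and ARNOLD at 14.5. These group levels rest on few regions. A single region ran from 0.169 to 441 RPM in WT, with a median of 9.64 RPM.

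Most of this signal was not detected in nrpd1a, yet the members as a whole kept more of their WT level than other regions did. Summed over the 276 regions, nrpd1a had 16.1% of the WT level (15.3 to 17.0), against 2.51% (2.42 to 2.61) over all other regions and 1.24% (1.03 to 1.48) over the 431 VANDAL regions. Over the 48 members of at least 90% unique 24-mers the share was 1.55% (0.668 to 3.06), an interval that holds the 2.51% of all other regions. Those other regions were not limited to unique sequence, so the sets are unlike. Of the 276 regions, 246 were at least 2-fold lower in nrpd1a and 2 at least 2-fold higher, on the log2(RPM + 1) scale among regions of at least 1 RPM in any library. Over all 4480 regions that passed the same limit the shares were 92.9% lower and 0.246% higher, so the share of members that were lower, 89.1%, lay near that of all regions. No nrpd1a read was found in 164 of the 276 regions, 59.4%, against 77.1% of all regions. An exact binomial count test on the reads with Benjamini-Hochberg adjustment at 0.05 called 200 members lower and 4 higher, with 68.9% of all regions lower and 0.246% higher.

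A region was counted as kept in nrpd1a when it had at least 3 nrpd1a reads and at least 10% of its WT level. By this rule 25 of the 276 regions were kept, against 103 of all 4481 regions, 2.30%. Of the 25, 18 were ARNOLDY1 or ARNOLDY2, 3 ATDNA12T3_2, 2 ATMU3N1, 1 ARNOLD3 and 1 ATDNAI27T9A. They held 1281 of the 1424 nrpd1a reads over the members, and 12 of them were at or above their WT level on the deposited RPM scale. In weakly covered regions 10% of WT lies under the floor, so a loss past that limit cannot be seen. Among the 76 members with a WT level high enough to see it, 67 were under 10%, and among the 1012 such regions of all kinds 978 were.

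**Figure D1:**
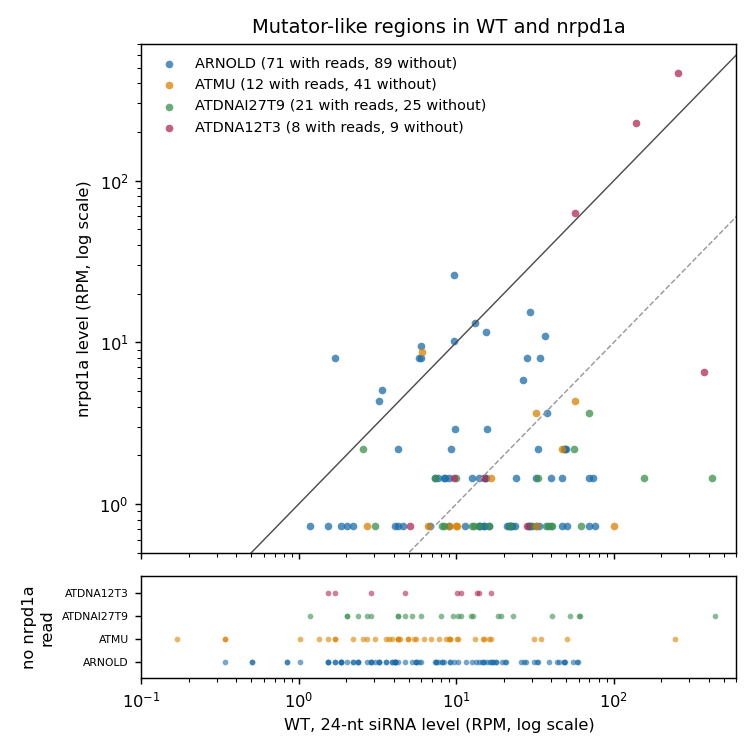
Each point is 1 of the 276 regions, with its WT level on the x axis and its nrpd1a level on the y axis (RPM, log scales); colours are the 4 name groups, the solid line marks equal levels and the dashed line 10% of WT. The lower panel holds the 164 regions without an nrpd1a read; in the upper panel 3 ATDNA12T3 regions stand at 63.2 to 463 RPM, on or above the line of equal levels.

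3 ATDNA12T3_2 regions near the centromere of chromosome 3 held 1038 of the 1424 nrpd1a reads. At chr3:13763401-13763455 the WT library had 256 RPM, ddb2-3 258 RPM and nrpd1a 463 RPM. At chr3:13796043-13796100 the levels were 138, 139 and 228 RPM, and at chr3:13862246-13862297 they were 56.6, 62.8 and 63.2 RPM. All 3 were as high in nrpd1a as in WT or higher, at 181% (165 to 199), 166% (145 to 189) and 112% (87.1 to 142) of the WT level. The WT and ddb2-3 levels of each pair were close, with a summed log2 ratio of 0.03 (-0.04 to 0.10) over the 3. These 3 regions were picked for having the most nrpd1a reads of all members, and without them the members kept 4.70% of the WT level (4.24 to 5.19).

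A neighbour of the same name behaved differently in both mutants. The region at chr3:13859301-13859400 went from 374 RPM in WT to 230 in ddb2-3 and 6.54 in nrpd1a, which is 1.75% of WT (0.799 to 3.33). Its ddb2-3 to WT ratio was 0.616 (0.579 to 0.655). The nearest coding gene of the annotation lies 158390 bp or more from each of the 4 regions. The other 13 ATDNA12T3_2 regions had between 1.52 and 28.1 RPM in WT and at most 1.45 RPM in nrpd1a.

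The 4 regions align to different places of one tandem unit. The core 24-mer shown above has 189 copies in the genome, 135 on chromosome 3, 10 on chromosome 4 and 44 on chromosome 5, and its most frequent spacing is 506 bp, with 66 of 151 successive copies within 10 bp of it. The 3 kept regions align to positions 490 to 561 counted from the start of the core, across the end of 1 unit and the core of the next, at 84.6 to 91.4% identity. The core is the most frequent 24-mer of these 3 regions, so their place across it largely follows from that choice. The lost neighbour aligns to positions 56 to 152 at 85.0% identity, downstream of the core. Its most frequent 24-mer has 206 genomic copies. In the kept regions at chr3:13763401-13763455, chr3:13796043-13796100 and chr3:13862246-13862297 that number is 29, 189 and 65, so more copies did not go with kept signal here. Position alone did not separate kept from lost: ATDNA12T3_2 regions at chr1:11493401-11493500 and chr1:12468001-12468100 align across the core at 71.0% and 78.1% identity, and had 16.7, 25.5 and 0 RPM and 9.64, 10.1 and 1.45 RPM in WT, ddb2-3 and nrpd1a. In all, 8 of the 17 regions align over at least 40 bases. As background, the core and its flanks are the sequence known for the nuclear 5S ribosomal RNA genes, which stand in tandem arrays near Arabidopsis centromeres. The annotation used here has no gene at these regions, and whether their reads are siRNAs or fragments of another RNA was not tested.

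**Figure D2:**
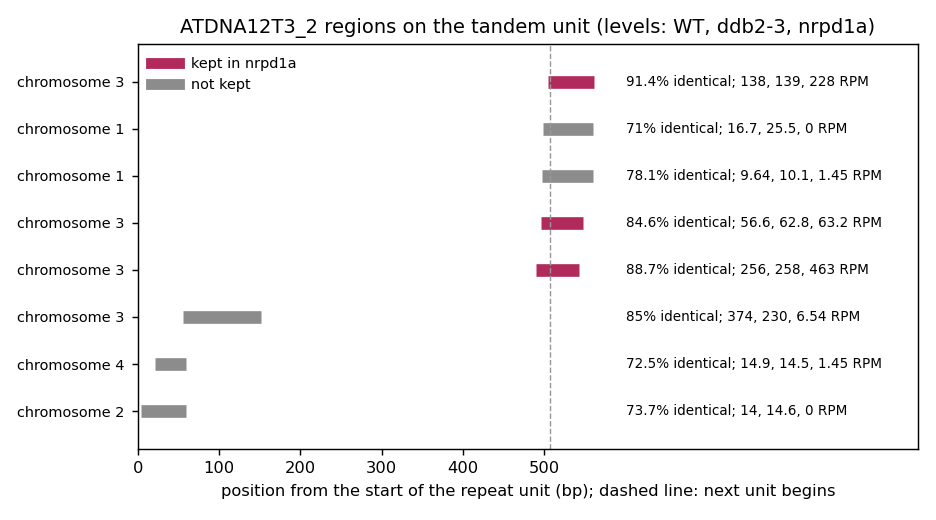
Bars show where 8 ATDNA12T3_2 regions align on the tandem repeat unit (x axis, bp from the start of the core), with the percent identity and the WT, ddb2-3 and nrpd1a levels in RPM beside each; red bars were kept in nrpd1a. The 3 kept bars lie across the dashed line at which the next core begins, as do 2 grey bars of lower identity. The core was taken from the 3 kept regions. The grey bar with 374 RPM in WT lies downstream.

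ARNOLDY1 and ARNOLDY2, transposon families of the ARNOLD name group, gave most of the other kept regions. The 46 ARNOLDY2 regions had 18.3% of the WT level in nrpd1a (15.7 to 21.2) and the 42 ARNOLDY1 regions 6.84% (5.33 to 8.65). The 72 regions of ARNOLD1 to ARNOLD4 had 2.59% (1.87 to 3.51), close to the 2.51% of regions outside the 4 groups. The clearest single region was ARNOLDY2 in an intron of AT1G18130 (chr1:6237301-6237400), with 9.64 RPM (WT), 10.5 RPM (ddb2-3) and 26.2 RPM (nrpd1a), a nrpd1a to WT ratio of 2.71 (1.74 to 4.19). ARNOLDY1 at chr4:17450501-17450600 had 1.69, 2.88 and 7.99 RPM, a ratio of 4.73 (1.82 to 12.4) from 10 WT reads. An ARNOLDY2 region in an intron of GSL09, a gene of the callose synthase family (chr5:14525201-14525300), stood at 13.2, 12.5 and 13.1 RPM. ARNOLDY2 at chr3:14737201-14737500 had 29.3, 28.8 and 15.3 RPM and ARNOLDY1 at chr1:3827201-3827400 had 36.4, 32.1 and 10.9 RPM. The nrpd1a share of these 5 regions ran from 30% to 473%. Their ddb2-3 to WT ratios ran from 0.883 to 1.09 in 4 of them, and the weakly covered ARNOLDY1 region of chromosome 4 had 1.7 (0.784 to 3.98).

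The kept ARNOLDY regions shared sequence. All 18 held a 24-mer with at least 50 copies in the genome, the copies of their most frequent 24-mer running from 64 to 148. Of the 36 ARNOLDY regions with such a 24-mer 18 were kept, and over the 36 nrpd1a had 28.7% of the WT level (25 to 32.8). Over the other 52 regions it had 2.29% (1.53 to 3.29), with none kept. Regions at chr1:16596501-16596600 and chr5:5969501-5969600 held a 24-mer of 133 copies and were not kept, with 2 nrpd1a reads each. They had 8.45 and 12.5 RPM in WT and 1.45 RPM each in nrpd1a, more than 10% of WT. They missed only the limit of 3 reads, so no loss is seen in them. The limit of 50 copies was chosen after the values were seen, so the split is a description. With limits of 25 and 100 copies, also chosen after seeing the data, the share was 18.4% and 57.3% in regions past the limit and 2.38% and 2.09% in the rest. The 24-mer shown above, with 148 copies on 5 chromosomes and a most frequent spacing of 32 bp, was in 9 ARNOLDY regions, and all 9 were kept. Their summed levels were 93.7 RPM in WT, 92.5 in ddb2-3 and 97.4 in nrpd1a, 104% of WT (85.4 to 126). Searched on both strands, this 24-mer was in 14 of the 4481 regions, 0.312%. The 5 outside the members were all HELITRONY3 Helitron regions, and all 5 were kept, with 1.35 to 35.7 RPM in WT and 2.91 to 12.4 RPM in nrpd1a. Every one of the 18 kept ARNOLDY regions shared a 24-mer with another of them, so the same reads may stand behind several.

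Some of the same regions can be set side by side within single elements. In 9 ARNOLDY elements a kept region and a region that was not kept lay within the same element, and in 8 of them the kept region held the 24-mer of highest copy number. These elements were picked for holding a kept region, and their kept regions are among the 18 above, so this is no separate check. In the element of AT1G18130 the kept region lies near one at chr1:6237601-6237700 with 32.1, 29.7 and 1.45 RPM in the same order. In the element of GSL09 the region at chr5:14523801-14523900 had 48.5, 34.6 and 0 RPM. The exception was an element near NRT1.1, a nitrate transporter gene. There the kept region (chr1:4111501-4111600) held a 24-mer of 113 copies, and a region with one of 133 copies (chr1:4111601-4111900) had 7.61, 8.03 and 1.45 RPM from 2 nrpd1a reads, under the floor. Copy number alone did not mark kept regions: 18 of the 36 ARNOLDY regions with a 24-mer of at least 50 copies were kept. Only 11 of the 36 had a WT level high enough to see a loss past 10%, and 6 of these 11 were under 10%. Others may have missed being counted only through the floor. Outside ARNOLDY 2 of 11 members with a 24-mer of at least 50 copies were kept, both ATDNA12T3_2.

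**Figure D3:**
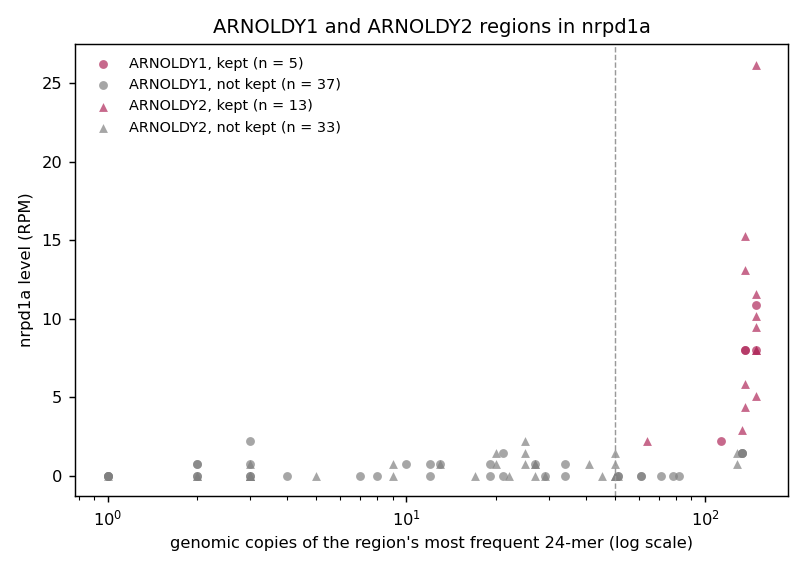
Each point is an ARNOLDY1 (circle) or ARNOLDY2 (triangle) region, with the number of genomic copies of its most frequent 24-mer on the x axis (log scale) and its nrpd1a level in RPM on the y axis; red points were kept in nrpd1a and the dashed line marks 50 copies. The 18 kept regions lie between 64 and 148 copies, a range that also holds regions that were not kept. Regions under 50 copies have at most 2.18 RPM.

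ATDNAI27T9 and ATMU regions, by contrast, kept little of their signal in nrpd1a. The 46 ATDNAI27T9 regions had 1.32% of the WT level (0.913 to 1.84), and the 53 ATMU regions 2.79% (1.94 to 3.89). All regions outside the 4 groups had 2.51% and VANDAL regions 1.24%. The regions named next had the highest WT levels of their groups, where the floor of 3 reads allows the largest folds. ATDNAI27T9A at chr5:9069301-9069400 had 441 RPM in WT, 371 in ddb2-3 and no nrpd1a read, at least 202-fold lower against the floor of 3 reads. A second ATDNAI27T9A region, 114 bp upstream of AT3G48131 (chr3:17775701-17775800), had 418, 367 and 1.45 RPM. ATMU3N1 at chr5:6461201-6461285, which overlaps an untranslated exon of AT5G19210, had 246, 226 and 0 RPM, at least 113-fold lower. ATMU3 at chr1:17813801-17813882, 1695 bp upstream of NPSN12, a gene for a SNARE protein of vesicle fusion, had 99.6, 92.9 and 0.727 RPM. In all 4 the ddb2-3 level was somewhat lower than WT, with ratios from 0.841 to 0.932. Only the ATMU3 interval (0.837 to 1.04) included equal levels. In nrpd1a each had 2 reads or fewer.

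These regions, all but empty in nrpd1a, are shown for their shared sequence. Capitals mark bases identical in the other region of each pair. The ATMU3 and ATMU3N1 regions, on different chromosomes, align over 74 positions with 67 identical bases, 90.5%. The 2 ATDNAI27T9A regions overlap by 14 identical bases, at the end of the first shown and the start of the second.
ATMU3 chr1:17813801-17813882 (+ strand): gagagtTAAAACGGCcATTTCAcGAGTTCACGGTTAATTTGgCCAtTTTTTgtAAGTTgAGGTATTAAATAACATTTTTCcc
ATMU3N1 chr5:6461201-6461285 (+ strand): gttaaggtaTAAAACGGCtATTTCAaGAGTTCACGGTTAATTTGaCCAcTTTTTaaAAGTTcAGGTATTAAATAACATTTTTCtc
ATDNAI27T9A chr5:9069301-9069400 (+ strand): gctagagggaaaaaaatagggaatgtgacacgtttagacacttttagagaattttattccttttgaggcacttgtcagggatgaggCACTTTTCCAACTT
ATDNAI27T9A chr3:17775701-17775800 (+ strand): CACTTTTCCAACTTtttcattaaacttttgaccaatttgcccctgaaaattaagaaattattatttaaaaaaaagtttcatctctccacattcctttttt

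ATMU3N1 was also the ATMU family with signal kept in nrpd1a, in 2 of its 7 regions. In an intron of AT1G02470 (chr1:513001-513100) the levels were 6.09, 8.75 and 8.72 RPM, 143% of WT (67.9 to 282). No 24-mer of that region had more than 3 genomic copies. A pair of adjoining ATMU3N1 regions lies upstream of PHR1, which encodes the photolyase that repairs cyclobutane pyrimidine dimers. The nearer, 202 bp from the gene (chr1:4209201-4209300), had 16.7, 13.7 and 0 RPM, and the farther (chr1:4209301-4209400) 31.8, 24.9 and 3.63 RPM, 11.4% of WT (3.67 to 27.1) and just past the 10% limit. Neither PHR1 region had the 2-fold difference between ddb2-3 and WT used as the limit here. The remaining kept regions were near the floor: ARNOLD3 at chr3:17417801-17417900 had 15.6, 13.9 and 2.91 RPM, and ATDNAI27T9A at chr4:9794501-9794700 had 2.54, 2.64 and 2.18 RPM. The other 46 ATMU regions together had 1.85% of the WT level in nrpd1a (0.955 to 3.24), with none kept.

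**Figure D4:**
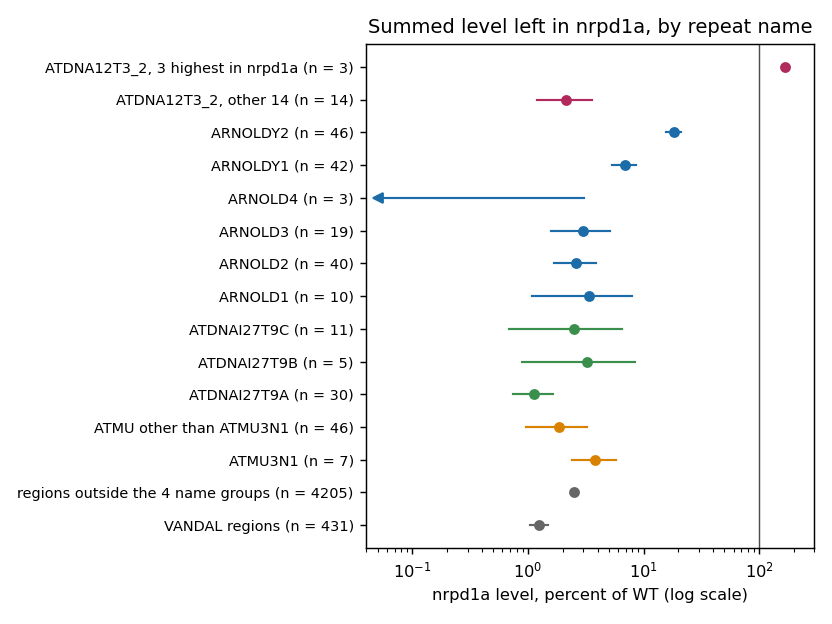
Points give the summed nrpd1a level as a percent of WT (x axis, log scale) for each ARNOLD, ATDNAI27T9 and ATDNA12T3_2 family and for ATMU3N1 and the other ATMU regions, with VANDAL regions and all regions outside the 4 name groups; bars are 95% counting intervals and the arrow marks a level of 0. ARNOLDY2, at 18.3%, and 3 ATDNA12T3_2 regions, at 168%, lie above the rest, which lie at 6.84% or less. These 3 were picked as the members with the most nrpd1a reads, so their place follows from that choice. The other 14 ATDNA12T3_2 regions had 2.15% (1.2 to 3.55).

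Against ddb2-3 the members were nearly level with WT. The summed log2 ratio was -0.04 (-0.06 to -0.02), against 0.14 (0.14 to 0.15) over all other regions and 0.11 (0.10 to 0.13) over VANDAL regions. The median log2 ratio, without pseudocount, of the 4462 regions with reads in both libraries was 0.20. The members' sum lay at -0.24 relative to it, which sets a sum against a median. The sum over all regions was 0.13 (0.12 to 0.13). Of the 276 regions 138 were above WT. On the log2(RPM + 1) scale the median log2 ratio was 0.00, beside 0.17 over all regions. By the 2-fold rule 8 regions were higher, 2.90%, and 2 were lower, 0.725%, where 5.22% and 1.67% of all regions were. The count test called 26 higher and 30 lower, beside 18.5% and 6.83% of all regions. Across the 276 regions log2(RPM + 1) in WT and ddb2-3 had a Pearson correlation of 0.96, a description over regions of the same 2 libraries that share reads.

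The direction of the small difference depended on which regions were summed. Over the 48 members of mostly unique sequence the sum was 0.10 (0.02 to 0.18). Without the 5 members of highest mean level the sum was 0.03, and those 5 included the ATDNA12T3_2 region that was lower in ddb2-3. By name group the sums were 0.02 (-0.03 to 0.07) for ATMU, 0.00 (-0.03 to 0.03) for ARNOLD, -0.04 (-0.08 to 0.00) for ATDNAI27T9 and -0.19 (-0.24 to -0.14) for ATDNA12T3. Within ARNOLD, ARNOLDY1 lay at -0.13 (-0.19 to -0.08) and ARNOLD2 at 0.08 (0.02 to 0.14).

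**Figure D5:**
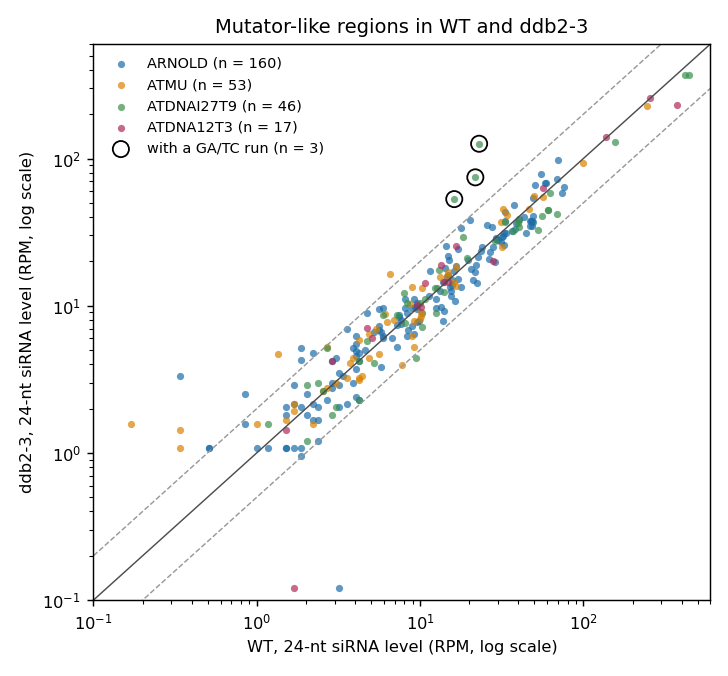
Each point is 1 of the 276 regions, with its WT level on the x axis and its ddb2-3 level on the y axis (RPM, log scales); colours are the 4 name groups, the solid line marks equal levels, the dashed lines 2-fold differences and rings the regions with a GA or TC run. The points follow the line of equal levels, and the 3 ringed regions lie above the upper dashed line at 53.0 to 126 RPM in ddb2-3.

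3 ATDNAI27T9 regions with a GA repeat were the ones with the most signal among the higher. ATDNAI27T9C at chr3:14254401-14254500, 132 bp upstream of AT3G42060, had 23 RPM in WT, 126 in ddb2-3 and no nrpd1a read, a ddb2-3 to WT ratio of 5.48 (4.58 to 6.60). ATDNAI27T9A at chr3:14305015-14305300 had 21.8, 74.5 and 0.727 RPM, a ratio of 3.42 (2.82 to 4.16). ATDNAI27T9A at chr1:20979601-20979700 had 16.2, 53.0 and 0.727 RPM, a ratio of 3.26 (2.61 to 4.11). The first and the third are shown with the run in capitals.
ATDNAI27T9A chr1:20979601-20979700 (+ strand): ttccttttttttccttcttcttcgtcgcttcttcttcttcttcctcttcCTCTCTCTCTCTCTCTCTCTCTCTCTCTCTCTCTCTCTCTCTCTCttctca
ATDNAI27T9C chr3:14254401-14254500 (+ strand): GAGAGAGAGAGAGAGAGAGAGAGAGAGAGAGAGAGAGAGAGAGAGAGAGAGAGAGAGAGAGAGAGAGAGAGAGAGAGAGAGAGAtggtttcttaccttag

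A run of at least 8 GA or TC dinucleotides, searched on both strands, was in 3 of the 276 members, 1.09%, and in 16 of all 4481 regions, 0.357%. Of the 13 such regions outside the members 10 were at least 2-fold higher in ddb2-3. The run is a 24-mer of up to 4013 genomic copies, so reads over these regions may be the same reads. The 43 ATDNAI27T9 regions without a run had a sum of -0.21 (-0.24 to -0.17), and ATDNAI27T9C, at 1.01 (0.88 to 1.14) with its GA region, had 0.21 (0.05 to 0.36) without it.

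The other 5 regions that were higher in ddb2-3 were weakly covered, with 0.169 to 6.59 RPM in WT. ATMUN2 at chr1:21341501-21341600 had 6.59, 16.4 and 0.727 RPM, a ratio of 2.49 (1.73 to 3.65). ARNOLDY1 in an intron of AT4G04760 (chr4:2427001-2427100) had 0.338, 3.35 and 0 RPM from 2 WT reads, a ratio of 9.92 (2.50 to 85.9). The 2 regions that were lower had 1 ddb2-3 read each. ARNOLDY1 upstream of GRXC2, a glutaredoxin gene (chr5:16149401-16149517), had 3.21, 0.12 and 0 RPM, a ratio of 0.0373 (0.000898 to 0.235), and ATDNA12T3_2 at chr4:1232430-1232500 had 1.69, 0.12 and 0 RPM, a ratio of 0.0709 (0.00163 to 0.498).

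Of the higher members, the 3 with a GA run and ATMUN2 reached 10 RPM in WT or ddb2-3, ATMUN2 only in ddb2-3. The lower members did not reach 10 RPM in either. The share of all regions at this limit was not computed. Above that level the ARNOLD regions with the highest ratios were ARNOLD2 at chr4:1928201-1928400, with 17.8 and 33.8 RPM, and ARNOLDY1 at chr5:25469301-25469400, with 20.3 and 38.1 RPM. The lowest ARNOLD ratios belonged to ARNOLDY1 at chr1:4111110-4111200, with 13.9 and 7.91 RPM, and ARNOLD3 at chr3:17413001-17413100, with 22.2 and 14.3 RPM. In ATDNAI27T9 the lowest were ATDNAI27T9A at chr2:9057301-9057400, with 69.2 and 42.2 RPM, and at chr3:5929424-5929500, with 52.4 and 32.5 RPM. None of these 6 passed the 2-fold limit.

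In ddb2-3 the CHG and CHH classes of members lay near WT, and the CG classes, with 3 regions in all, lay farther off. A class gives the cytosine context (CG, CHG or CHH, where H is any base but G) and whether the region was hyper- or hypomethylated, and the labels do not state which genotypes were compared for it. The 140 CHH-hyper regions had a sum of -0.06 (-0.08 to -0.03), the 76 CHH-hypo regions 0.06 (0.03 to 0.10), the 28 CHG-hypo regions -0.01 (-0.09 to 0.07) and the 35 CHG-hyper regions -0.14 (-0.19 to -0.09). Over all CHG-hyper regions of the study the sum was 0.37 (0.36 to 0.38). Over all CHH-hyper regions it was 0.08 (0.08 to 0.09) and over all CHH-hypo regions -0.03 (-0.04 to -0.02), of opposite sign to the members. All CHG-hypo regions had 0.20 (0.19 to 0.22). The CHG-hyper members included the ATDNA12T3_2 region at 374 and 230 RPM, and their median log2 ratio was 0.09, beside 0.34 over all CHG-hyper regions. The CG classes held 2 hyper regions, with 0.338 and 4.73 RPM in WT and 3.35 and 8.87 RPM in ddb2-3, a log2 sum of 1.27 (0.67 to 1.91). The 1 CG-hypo region, upstream of GRXC2, had -4.74 (-10.12 to -2.09) from 19 WT reads and 1 ddb2-3 read. All CG-hyper and all CG-hypo regions of the study had sums of 0.77 (0.64 to 0.90) and -0.70 (-0.82 to -0.59), the same directions.

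The share left in nrpd1a also varied by class, with the same few regions behind it. It was 53.5% (49.5 to 57.7) in CHG-hyper members, 10.9% (10.0 to 11.9) in CHH-hyper, 6.52% (5.48 to 7.70) in CHH-hypo and 3.10% (1.73 to 5.13) in CHG-hypo members. ATDNA12T3_2 supplied 733 of the 753 nrpd1a reads of the CHG-hyper members and 318 of the 529 of the CHH-hyper members. Without its highest region the CHG-hyper value was 11.0%. ARNOLD regions of the CHH-hyper and CHH-hypo classes kept 8.61% (7.37 to 10.0) and 10.2% (8.40 to 12.2).

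By position, 140 regions lay within 3 Mb of a centromere and 136 in the arms. The ddb2-3 sum was 0.02 (-0.01 to 0.04) near the centromeres and -0.10 (-0.13 to -0.07) in the arms, and over all regions it was 0.30 (0.29 to 0.30) and -0.05 (-0.06 to -0.04). The nrpd1a share was 25.2% (23.7 to 26.7) near the centromeres and 5.6% (4.89 to 6.38) in the arms. The 3 ATDNA12T3_2 regions lie near the centromere of chromosome 3 and held 1038 of the 1195 nrpd1a reads there. In ARNOLD the order was the other way, with 6.10% (5.11 to 7.23) near the centromeres and 11.3% (9.63 to 13.2) in the arms. Of its 19 kept regions 13 lay in the arms. ARNOLDY2 by itself kept 22.1% (17.8 to 27.2) near the centromeres and 15.6% (12.6 to 19.2) in the arms. The families differ in position, with 53 of 88 ARNOLDY regions in the arms against 20 of 72 of ARNOLD1 to ARNOLD4. What this mix contributes was not tested. ATMU regions kept 0.468% (0.0566 to 1.69) near the centromeres and 4% (2.75 to 5.63) in the arms.

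Relative to genes, 91 members lay within 2 kb upstream of a coding gene, 116 in other intergenic sequence, 44 in pseudogenes or transposon genes and 16 in introns. Intron regions had 9.30 RPM per 100 bp in WT and 33.8% of WT left in nrpd1a (26.4 to 42.7), from 4 kept regions in AT1G18130, AT1G33070, GSL09 and AT1G02470. Upstream regions had 21.6 RPM per 100 bp and 3.7% (3.07 to 4.43). Regions in pseudogenes or transposon genes had 7.90 RPM per 100 bp and 2.57% (1.36 to 4.4), with none kept. 2 members overlap annotated miRNA precursors: ARNOLD3 at MIR2933b (chr3:17402801-17402900), with 9.13, 6.47 and 0 RPM, and ATMU10 at MIR5645f (chr5:14947101-14947200), with 16.6, 18.3 and 1.45 RPM. Both levels were lower in nrpd1a, with 0 and 2 reads left.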

How the data were processed

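Small RNA libraries of 3 genotypes, 1 library each, were compared. Build TAIR10 and the tools bedtools, Bowtie and CASAVA 1.8.2 are listed in the submitters' processing notes. The authors deposited, for each library, 6 tables (1 per methylation class) of summed 24-nt RPM values per region. RPM values came out as whole multiples of 1 read for 100% of entries within 0.1 read, which gave the reads and normalising totals of 5913668 (WT), 8345931 (ddb2-3) and 1376238 (nrpd1a). Regions were pooled by chromosome, start and end, and 6 with mixed repeat names were left out. Members and lists were chosen with earlier results of these data known. Intervals are exact binomial (Clopper-Pearson), and folds use a pseudocount of 1 RPM and a filter of 1 RPM. Regions were named by rule: per name group, the 2 highest in WT, the 2 highest and 2 lowest ddb2-3 ratios from 10 RPM, the 2 lowest nrpd1a ratios, and kept regions, with others chosen after their values were seen. Sequences and genes are from RefSeq TAIR10.1; 334 of 341 matched loci overlapped their deposited regions. Python 3.11.15, numpy 2.4.6, scipy 1.17.1, Biopython 1.88 and matplotlib 3.10.9 were used, and the size rule was tested on simulated data.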

Additional observations from a re-analysis of the deposited data

How the results depend on the processing

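No library could be left out and no paired analysis was possible, since each genotype has 1 library. The members' summed ddb2-3 log2 ratio was -0.24 after rescaling to the median region, -0.08 without GA runs, 0.03 without the 5 highest members and 0.10 over the 48 of mostly unique sequence. Their nrpd1a share was 7% without those 5, 1.55% over the unique 48 and 4.7% without the 3 highest in nrpd1a, an alternative chosen after seeing the data. The median log2 ratio was -0.05 with a 10 RPM filter and -0.16 rescaled. The numbers of members higher in ddb2-3 were 3 with a pseudocount of 5 RPM, 4 with the 10 RPM filter and 26 by the count test, and those lower were 0, 0 and 30. In nrpd1a the numbers higher were 1, 1 and 4, and 8 with levels under 3 reads set to 3 reads, and 137 were lower with the 10 RPM filter. Rescaled log2 sums were -0.17 for ATMU, -0.20 for ARNOLD, -0.24 for ATDNAI27T9 and -0.39 for ATDNA12T3. By class they were -0.34 for CHG-hyper, -0.21 for CHG-hypo, -0.26 for CHH-hyper and -0.14 for CHH-hypo. By position they were -0.18 near centromeres and -0.30 in arms, and they were -0.12 for ARNOLD2, -0.08 in pseudogenes or transposon genes and -0.14 upstream of genes. Without its highest member the log2 sum was 0.08 for ATMU, 0.02 for ATDNAI27T9, -0.28 for ATDNA12T3, 3.31 for CG-hyper and -0.20 for CHG-hyper. The nrpd1a share was then 43.1% for ATDNA12T3, 11% for CHG-hyper, 12.5% for CHH-hyper, 7.73% for CHH-hypo, 12.7% near centromeres and 6.45% in arms. With limits of 2 Mb and 5 Mb the pericentromeric log2 sum was 0.06 and -0.01, its share 44.6% and 19.6%, and the arm share 4.59% and 6.39%. With limits of 25 and 100 copies, chosen after seeing the data, the ARNOLDY share was 18.4% and 57.3%. Kept members numbered 29 at a limit of 5% of WT and 23 at 20%, limits also chosen after seeing the data. The cause of these shifts was not tested. The nrpd1a depth limits every low level: 3 reads are 2.18 RPM.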
